A study of Mus musculus with 11 samples.

Results

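Genes used to mark neural stem cells (NSCs) and radial glia were followed gene by gene through RNA sequencing libraries of cultured mouse hippocampal NSCs. They are 10 of the 53801 genes in the tables and were taken by name: the intermediate filament genes Nes and Vim, the SOX transcription factor genes Sox1, Sox2 and Sox9, the membrane glycoprotein gene Prom1, the fatty acid carrier gene Fabp7, the RNA-binding protein gene Msi1, and the nuclear regulator genes Hopx and Tfap2c. Each of the 10 symbols matched a single gene of the GENCODE mouse annotation.

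The study exposed primary NSCs, isolated from the hippocampus of mouse embryos (its mice were C57BL/6), to 4HBP. Cells were kept in proliferation medium, which holds the growth factors EGF and bFGF, or in differentiation medium, which holds neither of them and more of the B27 supplement. All received either 1 µM 4HBP or the EtOH vehicle for 7 days, and none was genetically modified as far as the labels say. There were 3 libraries with 4HBP and 3 with vehicle in proliferation medium, and 3 with 4HBP and 2 with vehicle in differentiation medium. The sample labels name the compound 4-hydroxybenzoic acid, whereas the methods name it 4-hydroxybenzophenone. No source says that replicates came from separate cultures or embryos, so the p-values measure only the spread between these libraries, which may be technical. In RNA from whole cultures, fewer cells of a type and less RNA per cell cannot be told apart.

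Radial glia are the stem cells of the embryonic brain: they divide along the ventricle, carry a long process built on the filament proteins nestin and vimentin, and give rise to neurons and then to astrocytes and oligodendrocytes. The SOX proteins hold these cells in the stem cell state, and Musashi-1 does so by repressing the translation of target RNAs. Growth factor withdrawal is the usual way to let cultured NSCs leave this state. Vim, Sox9, Fabp7 and Hopx are also expressed in astrocytes, Prom1 also in other epithelial and glial cells, and Hopx and Tfap2c are known from the outer radial glia and basal progenitors of the developing cortex.

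RefSeq promoter windows were found for 7 of the 10 genes (Nes, Sox1, Sox2, Prom1, Vim, Fabp7 and Hopx). The stretches upstream of the first annotated exon are shown for Nes and Fabp7, which were lower in differentiation medium. For Hopx, which was higher, the stretch lies inside the annotated gene, upstream of a later start. These genes carry the largest medium change, the 4HBP result that differed between the media, and the largest 4HBP change in differentiation medium. They are read 5′ to 3′ on the gene's strand in GRCm38.p6, at chr3:87970843-87971077 (plus strand) for Nes, chr10:57784673-57784880 (plus strand) for Fabp7 and chr5:77095278-77095517 (minus strand) for Hopx, which has another start farther upstream. Capitals mark matches on either strand to a few short motifs. The TATA box was searched as TATAAA. The box bound by the factor NF-Y was searched as CCAAT. The core letters of the Notch effector RBPJ were searched as TGGGAA, and those of the SOX proteins as ACAAT. No match overlapped another.
Nes: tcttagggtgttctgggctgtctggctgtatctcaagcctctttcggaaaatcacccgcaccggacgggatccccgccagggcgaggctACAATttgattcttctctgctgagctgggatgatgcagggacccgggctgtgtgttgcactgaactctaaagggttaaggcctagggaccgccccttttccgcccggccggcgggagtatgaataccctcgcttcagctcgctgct
Fabp7: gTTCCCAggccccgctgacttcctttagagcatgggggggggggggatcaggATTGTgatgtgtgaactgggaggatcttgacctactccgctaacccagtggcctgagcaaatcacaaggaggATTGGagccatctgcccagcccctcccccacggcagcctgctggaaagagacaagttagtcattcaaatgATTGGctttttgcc
Hopx: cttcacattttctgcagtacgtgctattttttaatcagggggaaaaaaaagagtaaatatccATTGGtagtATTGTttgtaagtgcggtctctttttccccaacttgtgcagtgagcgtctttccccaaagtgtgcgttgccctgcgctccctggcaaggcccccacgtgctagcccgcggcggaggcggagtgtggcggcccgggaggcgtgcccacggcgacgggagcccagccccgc

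Each of the 3 stretches held ACAAT, in 1 place. Of all 32851 promoter windows cut to the same length, 26.8%, 24.4% and 27.1% held it for the lengths of Nes, Fabp7 and Hopx. CCAAT stood in 2 places in Fabp7 and in 1 place in Hopx, against 29.6% and 33.0% of all windows, and TGGGAA stood in 1 place in Fabp7, against 18.5%. No TATAAA was found in the 3 stretches, against 11.9%, 9.47% and 12.1% of all windows. These are matches of letters and not sites known to be bound.

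The libraries held between 20822921 and 23438463 expected counts, and 3 counts, taken as the floor of detection, equal 0.128 to 0.144 CPM (counts scaled to library size), which covers counting error only. Replicates varied more in proliferation medium (biological coefficient of variation over all genes 0.117) than in differentiation medium (0.0368). In proliferation medium, 4HBP replicate 3 stood apart: its counts differed from those of the other replicates with a chi-square per gene of 23.8 and 21.4, against 5.34 between those 2. As to the labelled cell type, 9 of the 10 markers were above 3 TPM (a level per transcript length, scaled to the same sum in each library) in every library, and Tfap2c was not detected beyond 4 counts. Microglia markers summed to between 1.21 and 3.90 CPM and meningeal fibroblast markers to between 0.345 and 1.79 CPM. Astrocyte (4822 to 12882 CPM), oligodendrocyte lineage (2453 to 9470 CPM) and neuron markers (1156 to 1358 CPM) were present in all libraries of both media. The neuron sum came mostly from Map2 (group means 655 to 836 CPM), whereas the neuronal gene Rbfox3 had group means of 1.58 to 2.74 CPM.

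The medium divided the markers into a falling and a rising set. With vehicle, all 9 testable markers differed between the media at an adjusted p under 0.05 (edgeR quasi-likelihood test, Benjamini-Hochberg adjustment over 15920 genes), 6 of them lower and 3 higher in differentiation medium. Of all genes, 61.4% passed with vehicle, 30.6% lower and 30.8% higher. With 4HBP, 5 were lower and 3 higher, and Sox1 did not pass. Here 67.2% of all genes passed, 33.8% lower and 33.3% higher. Values of the 2 groups did not overlap for any of the 9 markers in either comparison, with 6 below and 3 above. The same held for 76.4% of all genes with vehicle (37.1% below, 39.3% above) and for 71.5% with 4HBP (35.5% below, 36.0% above). The median log2 fold change of the 9 was -0.51 with vehicle and -0.44 with 4HBP, against 0.03 and 0.01 over all genes.

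Nes, at chr3:87971078-87980451 (GRCm38, plus strand), encodes nestin, the filament protein by which NSCs are usually stained, and had the largest medium change of the 9 tested markers. In proliferation medium, its normalized CPM (scaled by TMM) was 482, 457 and 700.4 in vehicle replicates 1 to 3 and 755, 797 and 481 in 4HBP replicates 1 to 3. In differentiation medium, Nes was at 94.1 and 89.5 with vehicle and at 96.5, 85.9 and 91.8 with 4HBP. The lowest proliferation library was thus still far above the highest differentiation library, although the proliferation libraries were spread widely and across both treatments. Nes was 5.95-fold lower in differentiation medium with vehicle (log2 fold change -2.57, SE 0.22, adjusted p = 5.45e-07) and 7.41-fold lower with 4HBP (-2.89, SE 0.19, adjusted p = 3.34e-08).

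Vim, at chr2:13573927-13582826 (plus strand), encodes vimentin, the filament protein that nestin assembles with. Its normalized CPM in proliferation medium was 2486, 2573 and 3231 with vehicle and 2737, 2920.1 and 2754 with 4HBP. In differentiation medium, it was 839 and 777 with vehicle and 760.5, 731 and 719.5 with 4HBP. The media were far apart, and vehicle replicate 3, which was high for Nes among the vehicle libraries, was also the highest for Vim. The fall was 3.42-fold with vehicle (log2 fold change -1.77, SE 0.10, adjusted p = 1.88e-08) and 3.80-fold with 4HBP (-1.93, SE 0.09, adjusted p = 1.52e-09).

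Sox9, at chr11:112782224-112787760 (plus strand), is needed for neural stem cells to form and later for glial fate. It measured 362, 433 and 405 normalized CPM with vehicle and 415, 407 and 404 with 4HBP in proliferation medium. In differentiation medium, the values were 199 and 184 with vehicle and 179.8, 176 and 179.8 with 4HBP. Sox9 was 2.09-fold lower in differentiation medium with vehicle (log2 fold change -1.06, SE 0.07, adjusted p = 9.64e-08) and 2.29-fold lower with 4HBP (-1.19, SE 0.07, adjusted p = 6.37e-09).

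Sox2, at chr3:34650405-34652461 (plus strand), is the SOX factor shared by pluripotent and neural stem cells, and it fell less than Sox9. Its normalized CPM was 312, 344 and 334 with vehicle and 314, 319 and 319 with 4HBP in proliferation medium, against 230.2 and 233 with vehicle and 241, 230.1 and 231 with 4HBP in differentiation medium. The drop was 1.42-fold with vehicle (log2 fold change -0.51, SE 0.06, adjusted p = 7.42e-06) and 1.36-fold with 4HBP (-0.44, SE 0.05, adjusted p = 6.67e-06). On the log2(TPM+1) scale the differences were only -0.09 and -0.08 and did not pass (limma, adjusted p = 0.252 and 0.224).

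Sox1, at chr8:12395295-12400126 (plus strand), a SOX factor of the neural lineage, had the smallest fall. It measured 48.1, 66.4 and 53.3 normalized CPM with vehicle and 48.2, 48.1 and 52.8 with 4HBP in proliferation medium. Differentiation cultures had 42.9 and 42.2 with vehicle and 44.4, 44.8 and 43.5 with 4HBP. Vehicle replicate 2 in proliferation medium was the highest of the 11 libraries. The log2 fold change was -0.40 with vehicle (SE 0.11, adjusted p = 0.00642) and -0.17 with 4HBP (SE 0.10, 95% confidence interval -0.38 to 0.04, adjusted p = 0.139). The direction of Sox1 depended on the scale: on log2(TPM+1) it was 0.043 with vehicle and 0.19 with 4HBP, neither of which passed (limma, adjusted p = 0.866 and 0.189). On log2(CPM+1), limma gave -0.29 with vehicle (adjusted p = 0.0851).

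Fabp7, at chr10:57784881-57788450 (plus strand), encodes the brain lipid-binding protein of radial glia. Its normalized CPM in proliferation medium was 1018, 1044 and 926 with vehicle and 826, 829 and 682 with 4HBP. In differentiation medium, it was 359 and 405 with vehicle and 427, 453 and 469 with 4HBP. The 4HBP libraries therefore lay below the vehicle libraries in proliferation medium (as for 15.1% of all genes) and above them in differentiation medium (17.4%). The fall from proliferation to differentiation medium was 2.61-fold with vehicle (log2 fold change -1.38, SE 0.10, adjusted p = 9.55e-08) and 1.73-fold with 4HBP (-0.79, SE 0.08, adjusted p = 2.44e-06).

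Prom1, at chr5:43993620-44102032 (minus strand), encodes prominin-1 (CD133), a protein of membrane protrusions used to sort NSCs, and was one of the markers that rose. It measured 19.1, 16.1 and 15.0 normalized CPM with vehicle and 17.5, 13.3 and 7.45 with 4HBP in proliferation medium, where 4HBP replicate 3 was the lowest. Differentiation cultures had 52.2 and 48.0 with vehicle and 49.0, 48.6 and 45.3 with 4HBP. Prom1 was 3.00-fold higher in differentiation medium with vehicle (log2 fold change 1.58, SE 0.21, adjusted p = 2.80e-05) and 3.74-fold higher with 4HBP (1.90, SE 0.20, adjusted p = 2.50e-06). Without 4HBP replicate 3 the latter log2 fold change was 1.62. An antisense gene, Gm16401, overlaps exons of Prom1 and had 7 to 48 counts. The library kit keeps the strand, but the sources used here do not say whether counting used it.

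Msi1, at chr5:115429599-115455698 (plus strand), encodes Musashi-1. It measured 108, 112 and 112 normalized CPM with vehicle and 115, 119.6 and 122 with 4HBP in proliferation medium, and 136 and 135 with vehicle and 146, 148 and 143 with 4HBP in differentiation medium. Its replicates were the tightest of the 9 markers in vehicle cultures, and the 4 groups did not overlap. The rise with the medium was 1.22-fold with vehicle (log2 fold change 0.29, SE 0.05, adjusted p = 0.000401) and 1.23-fold with 4HBP (0.29, SE 0.05, adjusted p = 0.000121).

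Hopx, at chr5:77086988-77115121 (minus strand), encodes a small homeodomain protein that does not bind DNA itself. Its normalized CPM in proliferation medium was 15.1, 14.1 and 11.3 with vehicle and 10.4, 9.33 and 12.4 with 4HBP. In differentiation medium, it was 22.0 and 20.5 with vehicle and 27.3, 26.9 and 25.3 with 4HBP. The treatments overlapped in proliferation medium and were apart in differentiation medium. Hopx was 1.57-fold higher in differentiation medium with vehicle (log2 fold change 0.65, SE 0.13, adjusted p = 0.000695) and 2.47-fold higher with 4HBP (1.31, SE 0.12, adjusted p = 6.18e-07). The antisense gene Hopxos, which overlaps its exons, had at most 4 counts.

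Tfap2c, at chr2:172549593-172558622 (plus strand), encodes AP-2γ and was listed at 0 in 9 of the 11 libraries. It had 1 count in 4HBP replicate 2 in proliferation medium and 4 counts in 4HBP replicate 3 in differentiation medium. The filter on low counts therefore left it out of the main edgeR tests. At the floor of 3 counts per library, its level was not above 0.128 to 0.144 CPM in the other libraries.

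**Figure D1:**
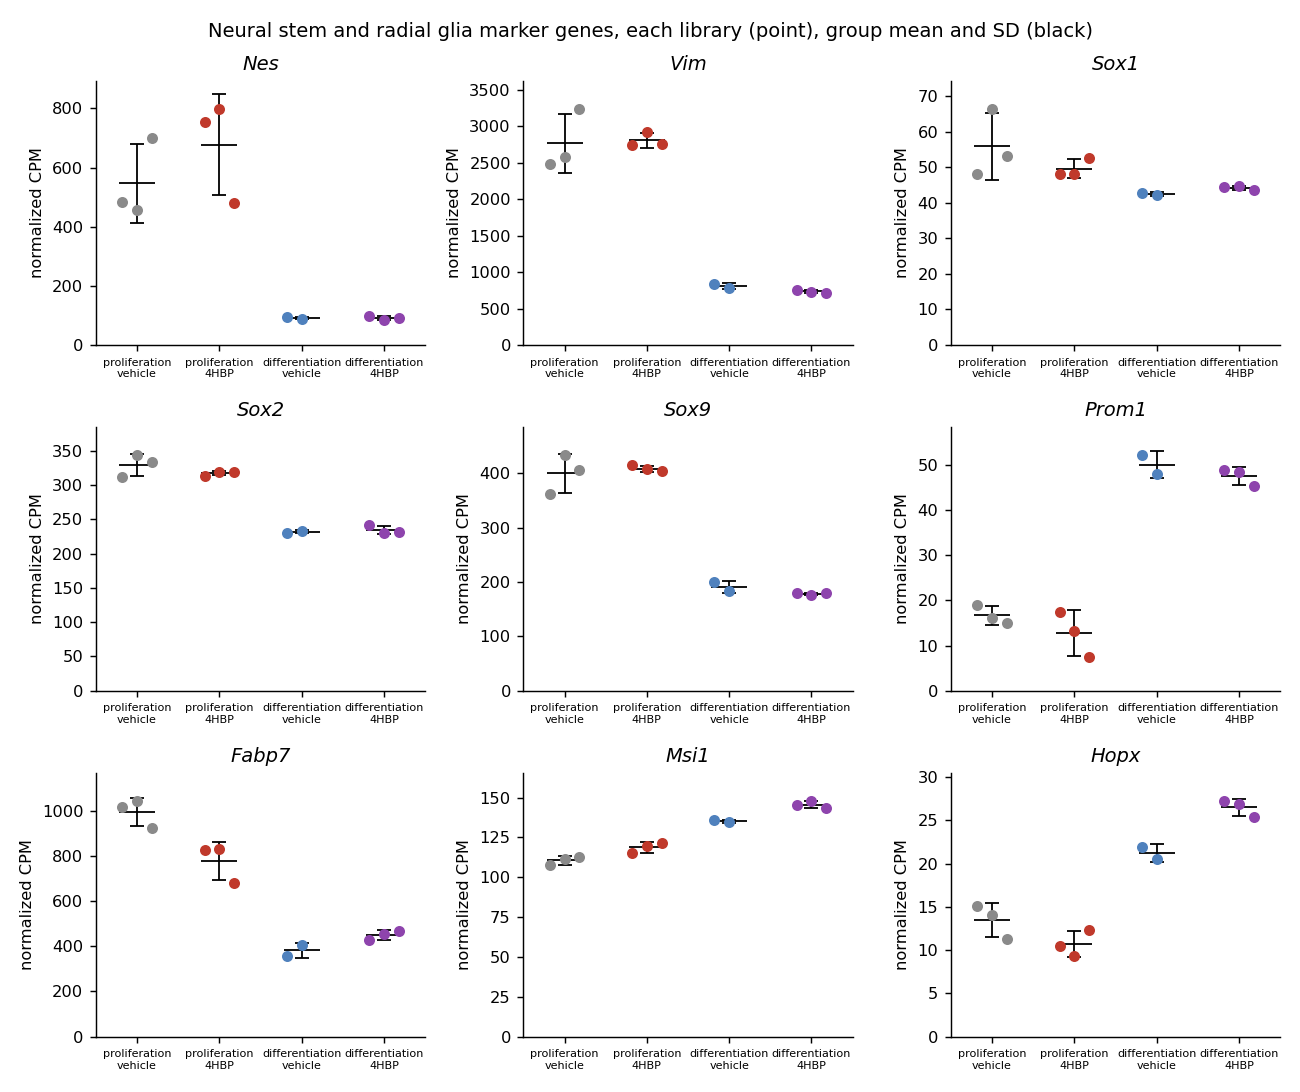
Normalized CPM (linear axis from 0) of 9 markers in each of the 11 libraries, by group, with group mean and SD in black. Nes, Vim, Sox9 and Fabp7 sit far lower in differentiation medium, Prom1, Msi1 and Hopx sit higher, and the Nes libraries of proliferation medium spread from 457 to 797.

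Marker lists of other cell types were set beside these changes. Of all genes, 30.8% were called higher and 30.6% lower in differentiation medium with vehicle. With vehicle, 8 of 10 astrocyte markers were higher and 2 were lower in differentiation medium (Gfap, -0.62 on the log2 scale, and Aldh1l1, -1.59), and their summed level rose from 6933 to 8358 CPM to 12430 to 12480 CPM. Of 10 oligodendrocyte lineage markers, 7 were higher and none lower, and their summed level was 3824 to 4585 CPM against 9086 to 9470 CPM. All 10 division genes were lower, with a median log2 fold change of -2.65. Of 4 tested ependymal markers, 3 were higher and none lower, and the summed level of the list of 6 was 41.6 to 46.6 CPM against 111 to 113 CPM. Most of this sum came from Foxj1, with a mean of 41.9 against 105 normalized CPM. The other genes called higher, Rsph1 and Dynlrb2, had means of only 3.47 and 3.20 in differentiation medium. Of 10 neuron markers, 5 were higher and 3 lower. The sum over endothelial and mural markers was 4.16 to 5.53 CPM against 30.0 to 32.2 CPM, most of it from the mural gene Pdgfrb, at 29.4 and 27.4 normalized CPM in differentiation medium and at 0.244, 1.43 and 0.496 in proliferation medium. No astrocyte, oligodendrocyte lineage or division gene was at or under 3 counts over a whole group, and their part in the changes of the 10 genes was not tested.

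Other genes of the stem cell state were counted in a further list of 25, all of them tested. With vehicle, 13 were lower and 5 were higher in differentiation medium (median -0.37, against 0.03 over all genes), and with 4HBP 13 were lower and 7 higher (median -0.17, against 0.01). Of all genes, 30.6% were lower and 30.8% higher with vehicle, and 33.8% lower and 33.3% higher with 4HBP. Hmga2 (-5.43 on the log2 scale), a chromatin protein of fetal stem cells, Hes5 (-3.46), a Notch target that blocks neuronal differentiation, Thrsp (-3.45), a regulator of lipid synthesis in adult NSCs, and Id4 (1.74), an inhibitor of basic helix-loop-helix factors, had the largest changes with vehicle. Like the 10 markers, this list held genes called in both directions.

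**Figure D2:**
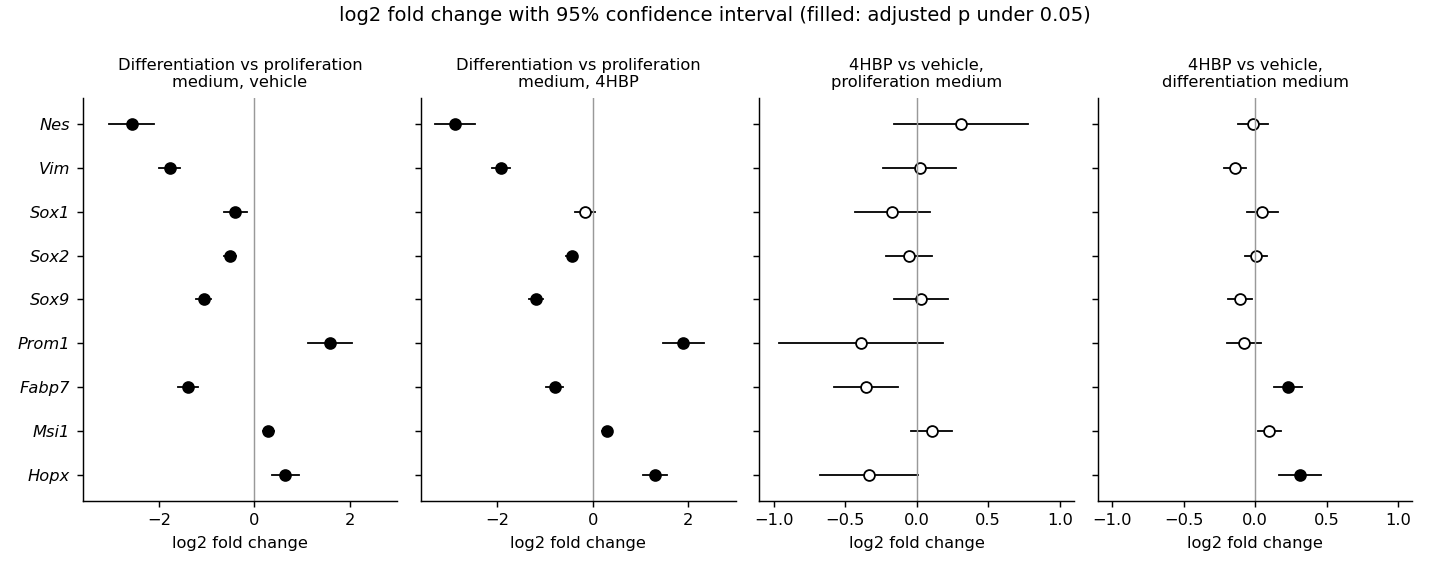
log2 fold change with its 95% confidence interval for 9 markers in the 2 medium comparisons and the 2 treatment comparisons (the treatment panels have a narrower axis), filled where the adjusted p is under 0.05. The medium changes reach -2.89 for Nes, while the treatment changes stay between -0.39 and 0.31.

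Levels were compared between genes on the TPM scale. In proliferation medium with vehicle, Fabp7 (2124 ± 149 TPM, SD, n = 3) and Vim (2114 ± 275) were highest and their ranges overlapped. They were followed by Sox2 (229 ± 7.26), by Sox9 (131 ± 9.37) and Nes (119 ± 27.5), which overlapped, and by Msi1 (57.5 ± 1.88). Hopx (18.8 ± 3.01) overlapped with Sox1 (15.6 ± 2.41), and Prom1 came last of the 9 at 8.99 ± 2.55 TPM. In differentiation medium with vehicle (n = 2), the order was Fabp7 (1059 ± 92.5), Vim (1005 ± 44.5), Sox2 (215 ± 1.17), Msi1 (108 ± 0.205), Sox9 (84.4 ± 5.31), Hopx (39.2 ± 2.00), Prom1 (27.9 ± 1.73), Nes (27.1 ± 0.976) and Sox1 (15.9 ± 0.262). Of these neighbours, Fabp7 and Vim overlapped, as did Prom1 and Nes.

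With 4HBP, the same order of the highest 3 was not kept throughout. In proliferation medium Vim (2194 ± 178 TPM, n = 3) stood above Fabp7 (1703 ± 113) without overlap, and Nes (150.3 ± 32.8) overlapped with Sox9 (137 ± 5.39). In differentiation medium Fabp7 (1217 ± 58.7) stood above Vim (910.2 ± 43.2) without overlap, and Hopx was at 47.6 ± 2.03 TPM. Nes fell from the markers of the middle of the order, next to Sox9, to the lower end, next to Prom1.

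**Figure D3:**
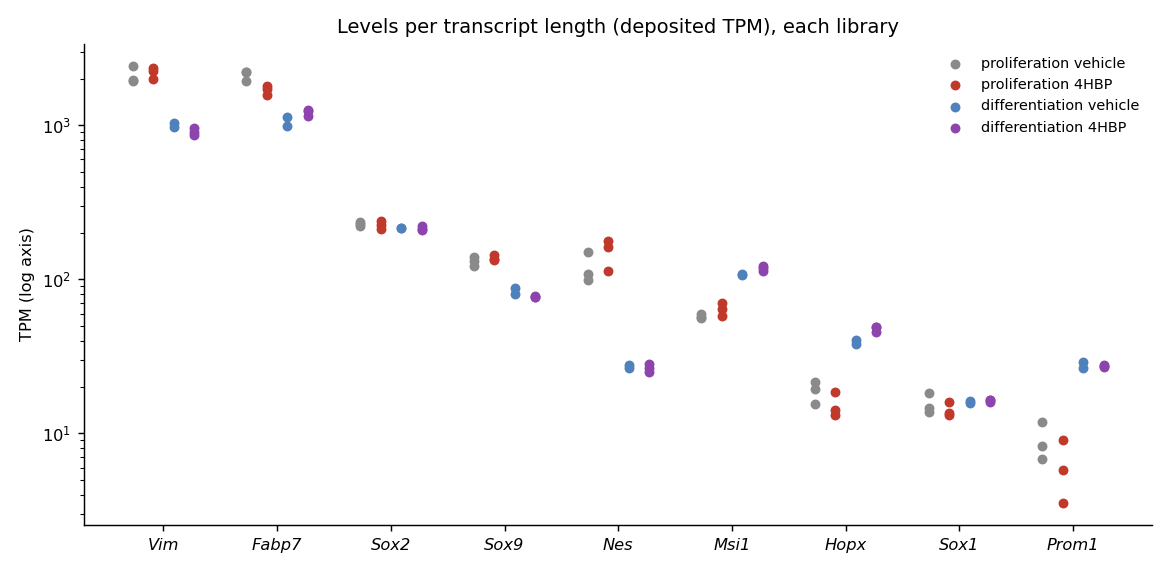
Deposited TPM (log axis) of 9 markers in each library, colored by group. Vim and Fabp7 lie at 1579 to 2431 TPM in proliferation and at 867 to 1259 TPM in differentiation medium. Sox2 lies below both at 208 to 240. In proliferation medium Prom1 lies lowest, below Sox1 and Hopx, which overlap.

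The TPM scale itself differed between the media. The short mitochondrial gene mt-Atp8, to which RSEM gave an effective length of only 18.6 to 23.6 bases in proliferation medium and 34.1 to 45.3 bases in differentiation medium, took 13.0% to 15.9% of all TPM in the former and 4.48% to 4.79% in the latter. The mean fragment length, read from the effective length of Sox1, was 194 to 205 bases in proliferation medium and 164 to 180.0 bases in differentiation medium. On log2(TPM+1), limma called 8077 genes higher and 2110 lower in differentiation medium with vehicle, over 27295 genes without a filter. On log2(CPM+1), over the same number of genes, it called 5924 higher and 4019 lower. With the mitochondrial genes left out of the TPM it called 5895 higher and 3304 lower. By edgeR on TMM-scaled counts, over 15920 filtered genes, 4902 were higher and 4869 lower. With 4HBP, limma called 8056 and 2772 on TPM and 6258 and 4956 on CPM, against 5309 and 5383 by edgeR. The limma and edgeR counts differ in method, scaling and genes tested, and the part of each was not tested. The sign held on every scale for Nes, Vim, Sox9, Fabp7, Prom1, Msi1, Hopx and Sox2, but not for Sox1.

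RSEM also gives each gene the mean length of its transcripts, weighted by their estimated abundance, which shows whether the transcripts behind a count shift. For Vim it was 1841 to 1931 bases in the 6 proliferation libraries and 1544 to 1592 bases in the 5 differentiation libraries. The longest protein-coding transcripts of Vim have 2193 and 1777 bases, so the mean lay between them in the first medium and below both in the second. For Msi1, whose longest coding transcript has 3133 bases, it was 2588 to 2749 bases against 2223 to 2384 bases. The weighted length of both genes was thus shorter in each differentiation library than in each proliferation library, and it was not tested, since the weights are estimates from the same reads.

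Prom1, with 19 annotated transcripts, ranged from 2334 to 3202 bases in proliferation medium and from 3002 to 3314 bases in differentiation medium, and the media overlapped. Unlike for Vim and Msi1, its mean was longer in differentiation medium, at 3223 against 2833 bases. Sox1, Sox2 and Sox9 have 1 annotated transcript each, so their length could not shift. Nes stayed between 6004 and 6123 bases, close to the 6126 bases of one of its coding transcripts. Hopx stayed between 1121 and 1133 bases, next to the 1113 bases of its shortest coding transcript. For Msi1 the log2 difference between the media with vehicle was 0.89 on log2(TPM+1) and 0.29 on counts, and the part of transcript length in this was not tested.

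**Figure D4:**
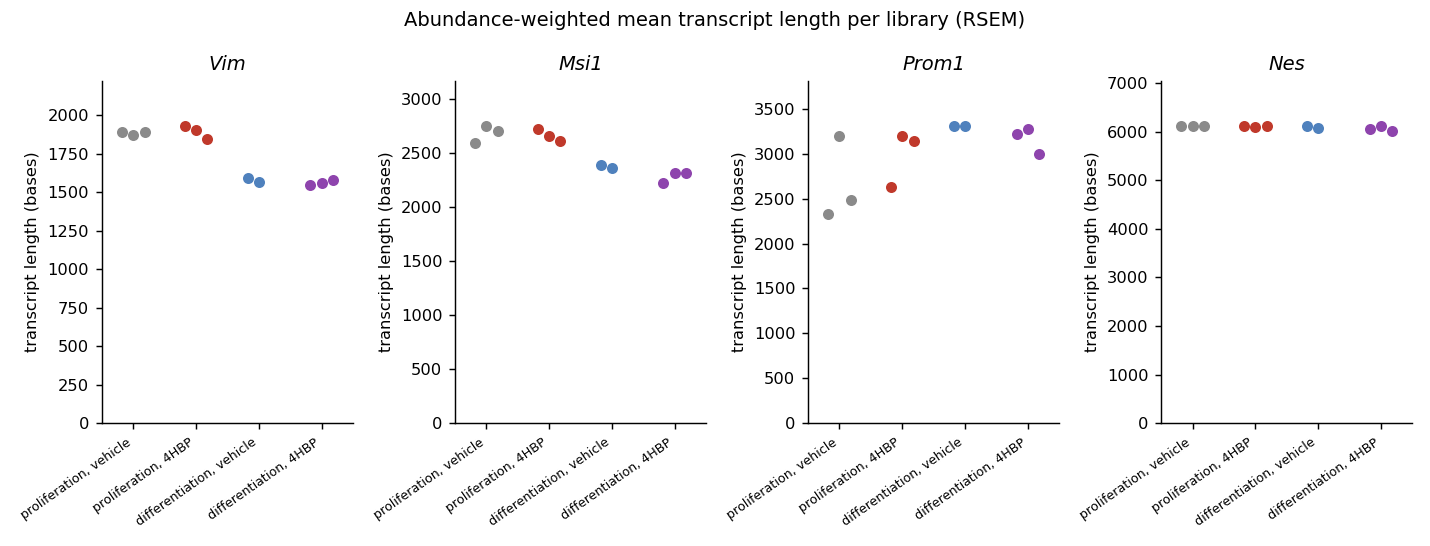
Abundance-weighted mean transcript length in bases (axis from 0) per library for Vim, Msi1, Prom1 and Nes, by group. Vim and Msi1 are shorter in all 5 differentiation libraries than in all 6 proliferation libraries, Prom1 overlaps, and Nes stays at 6004 to 6123 bases.

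In proliferation medium, none of the 9 testable markers passed for 4HBP against vehicle (edgeR, 0 of 9, against 7.43% of 14449 genes, 3.74% higher and 3.69% lower). At an unadjusted p under 0.05 there was 1 of 9, Fabp7, against 25.1% of all genes. DESeq2 and edgeR without the filter on low counts each called 1 marker, again Fabp7, and limma on log2(CPM+1) called 0. The groups did not overlap for 2 of 9 markers, against 31.3% of all genes, and these were Fabp7, lower with 4HBP (15.1% of all genes), and Msi1, higher (16.2%).

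Intervals over these 6 libraries differed in width by gene. For Fabp7, the log2 fold change was -0.35 (SE 0.10, 95% confidence interval -0.58 to -0.13, adjusted p = 0.0605), and without 4HBP replicate 3, the lowest of the 6, it was -0.26 (adjusted p = 0.0602). DESeq2 gave an adjusted p of 0.00932, edgeR without the filter 0.0349, and the fit to all 11 libraries 0.0116. Over all alternatives with an adjusted p, it ran from 0.00932 to 0.220.

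Sox2 and Sox9 had narrow intervals around 0, at -0.05 (95% confidence interval -0.21 to 0.11) and 0.03 (-0.16 to 0.22) on the log2 scale. Vim was at 0.02 (-0.23 to 0.28), Sox1 at -0.17 (-0.43 to 0.09) and Msi1 at 0.10 (-0.04 to 0.25). The intervals of Nes, at 0.31 (-0.16 to 0.78), Hopx, at -0.33 (-0.68 to 0.01), and Prom1, at -0.39 (-0.97 to 0.19), were the widest.

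Nes varied widely over the libraries of both treatments, and Prom1 over those with 4HBP. Nes had a coefficient of variation of 24.5% over the vehicle and 25.3% over the 4HBP libraries, against 3.49% and 5.76% in differentiation medium. Its high libraries were 4HBP replicates 1 and 2 and vehicle replicate 3, and without 4HBP replicate 3 the log2 fold change was 0.51 (adjusted p = 0.0621). Without vehicle replicate 3 it was 0.53, and without 4HBP replicate 2 or vehicle replicate 2 it was 0.18 or 0.20. Prom1 varied by 12.7% over the vehicle and by 39.5% over the 4HBP libraries. Its log2 fold change was -0.11 without 4HBP replicate 3 and -0.69 without 4HBP replicate 1. Sox2 and Sox9 varied by 1.04% and 1.36% over the same 4HBP libraries.

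Beside these, other stem cell genes did pass in proliferation medium, where 3.69% of all genes were lower and 3.74% higher with 4HBP. Of the 25, 4 were lower and none higher (median -0.16, against 0.0014 over all genes). Among them were Lpar1 (-1.12 on the log2 scale, adjusted p = 0.00987), a lysophosphatidic acid receptor, Thrsp (-0.88, adjusted p = 0.0104) and Ptprz1 (-0.55, adjusted p = 0.0137), a receptor phosphatase of radial glia. Lpar1 was at 12.8, 13.0 and 11.3 normalized CPM with vehicle and at 5.88, 6.86 and 4.35 with 4HBP.

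Astrocyte markers were lower too, in a comparison where 3.69% of all genes were lower. Of 10, 7 were lower with 4HBP and none higher (median -0.61), among them Gja1 (-0.85), the astrocyte gap junction protein, Aldoc (-0.70) and Gfap (-0.68), the astrocyte filament protein. Gjb6, another gap junction gene, also passed, with 0.496 to 0.927 normalized CPM with vehicle and 0.049 to 0.193 with 4HBP, close to the floor. These list counts were not recomputed without 4HBP replicate 3. The summed astrocyte level was 6933 to 8358 CPM with vehicle and 4822 to 5461 CPM with 4HBP, and none of the 10 was at 0. Fabp7, Hopx, Vim and Sox9, which astrocytes also express, stood at -0.35, -0.33, 0.02 and 0.03 in the same comparison, and the part of the astrocyte markers in these values was not tested. Of the division genes none passed (0 of 10, edgeR, against 7.43% of all genes, median -0.49). At an unadjusted p under 0.05 there were 5, against 25.1% of all genes. Their summed level was 1006 to 1176 CPM with vehicle and 502 to 974 CPM with 4HBP. The low end was 4HBP replicate 3, in which each of the 10 genes was lowest among the 4HBP libraries.

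**Figure D5:**
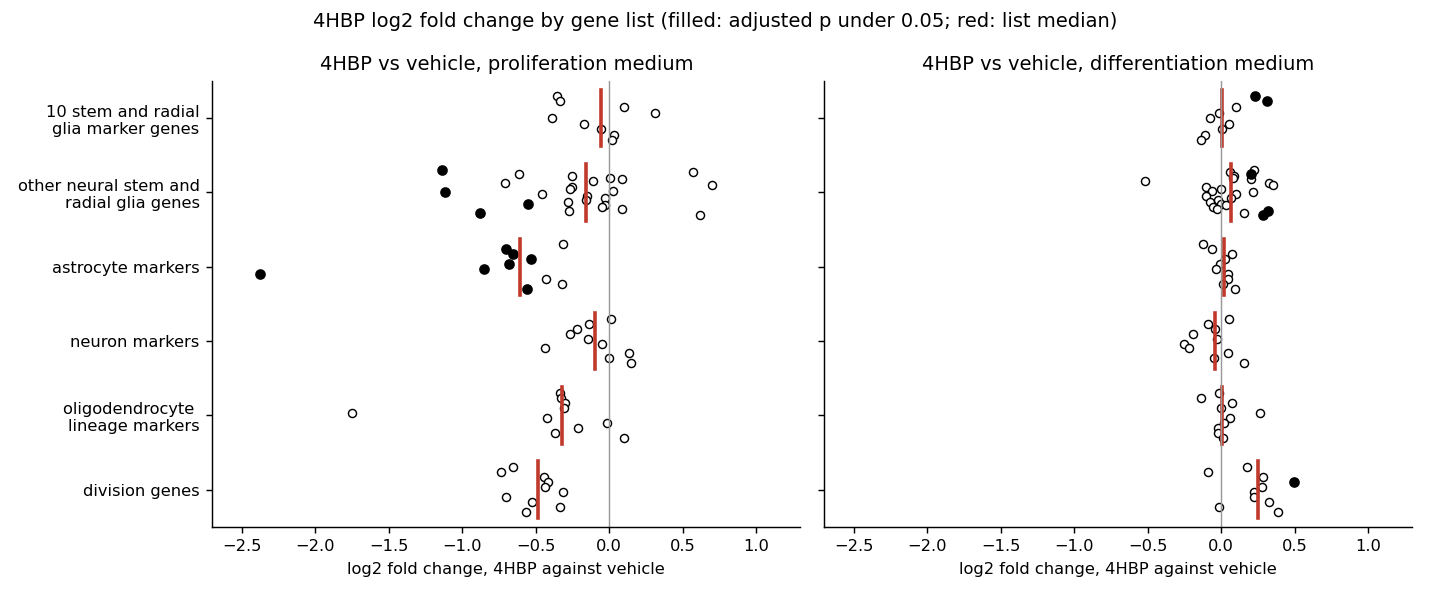
log2 fold change of 4HBP against vehicle for each tested gene of 6 lists in each medium, filled where the adjusted p is under 0.05, with the list median as a red line. The 9 tested markers center near 0 in both media (medians -0.05 and 0.01), while the astrocyte markers have a median of -0.61 in proliferation and 0.02 in differentiation medium.

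In differentiation medium, 2 of the 9 testable markers passed for 4HBP against vehicle, both higher with 4HBP (2.55% of 15484 genes passed, 1.26% higher and 1.29% lower). At an unadjusted p under 0.05 there were 5 of 9, against 15.9% of all genes. The groups did not overlap for 6 of 9 markers, against 32.8% of all genes, with Fabp7, Hopx, Msi1 and Sox1 above (17.4% of all genes) and Vim and Sox9 below the vehicle libraries (15.5%).

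Fabp7 rose 1.17-fold with 4HBP, from 359 and 405 to 427, 453 and 469 normalized CPM (log2 fold change 0.23, SE 0.05, adjusted p = 0.0170). Hopx rose 1.24-fold, from 22.0 and 20.5 to 27.3, 26.9 and 25.3 (0.31, SE 0.07, adjusted p = 0.0248). Both calls depended on few libraries and on the method. Of 7 alternatives with an adjusted p that left out no library, 4 called Fabp7 and 3 called Hopx. With 1 library left out, the log2 fold change of Fabp7 ran from 0.15, without vehicle replicate 1, to 0.32, and that of Hopx from 0.26 to 0.37. The call of Fabp7 was lost without 4HBP replicate 2 (adjusted p = 0.0635) and without vehicle replicate 1 (0.298), and that of Hopx was lost without 4HBP replicate 1 (0.0767) or 2 (0.0770) and without vehicle replicate 1 (0.101) or 2 (0.182). DESeq2 called Fabp7 (adjusted p = 0.000399) but not Hopx (0.111), and limma on log2(CPM+1) called neither (0.390 and 0.255), as it called 0 of 27295 genes in this comparison. In the fit to all 11 libraries, where the wider spread of proliferation medium is shared, neither passed (adjusted p = 1.00 for both), and neither did any other of the 15920 genes.

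Vim was at -0.14 on the log2 scale (SE 0.04, adjusted p = 0.0539), with 839 and 777 normalized CPM with vehicle and 760.5, 731 and 719.5 with 4HBP, and Sox9 was at -0.11 (SE 0.04, adjusted p = 0.193). Vim passed by DESeq2 (adjusted p = 0.0162), in edgeR without 4HBP replicate 1 (0.0294) and in edgeR under a replicate block (0.00285). Of 7 alternatives with an adjusted p that left out no library, 3 called Vim, at an adjusted p down to 0.000787. With 1 library left out, its log2 fold change ran from -0.19 to -0.08. Msi1 was at 0.10 (SE 0.04, adjusted p = 0.200) and Sox1 at 0.05 (95% confidence interval -0.06 to 0.16). The filament gene Nes, at -0.01 (-0.12 to 0.09), and Sox2, at 0.01 (-0.07 to 0.08), had intervals close around 0. Prom1 was at -0.08 (-0.20 to 0.04).

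Of the 25 other stem cell genes, 3 were higher with 4HBP in differentiation medium and none lower (median 0.06, against -0.0010 over all genes): Sox3 (0.32 on the log2 scale, adjusted p = 0.00901), the third gene of the SOX family that Sox1 and Sox2 belong to, Tnc (0.28, adjusted p = 0.0207), an extracellular matrix protein of the stem cell niche, and Ednrb (0.20, adjusted p = 0.00319), the endothelin receptor of radial glia. Of all genes in this comparison, 1.26% were higher, 1.29% were lower and 15.9% had an unadjusted p under 0.05. Of the 25, 12 had an unadjusted p under 0.05. None of the 10 astrocyte markers passed (edgeR, median 0.02), with 3 at an unadjusted p under 0.05, and their summed level was 12430 to 12480 CPM with vehicle and 12603 to 12882 CPM with 4HBP. Of the division genes, 1 of 10 was higher, Ccnb1 (0.49, adjusted p = 0.0476), with 6 at an unadjusted p under 0.05, and their summed level was 180.3 to 208 CPM with vehicle and 214 to 243 CPM with 4HBP. The part of these lists in the rise of Fabp7 and Hopx was not tested.

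The 4HBP effect was compared between the media by an interaction contrast over all 11 libraries, in which 4.49% of 15920 genes passed, 2.48% with a lower and 2.01% with a higher effect in proliferation medium. Of the 9 markers, Fabp7 passed: its 4HBP effect was lower in proliferation than in differentiation medium by 0.59 on the log2 scale (difference -0.59, SE 0.13, adjusted p = 0.0204). Its 3 proliferation libraries with 4HBP all lay below the vehicle libraries, as for 15.1% of all genes. Its 3 differentiation libraries with 4HBP all lay above theirs, as for 17.4%. The test itself used these values. The call was lost without proliferation vehicle replicate 1 (adjusted p = 0.0521) or 2 (0.0503), without differentiation 4HBP replicate 2 (0.0600) or 3 (0.0636), and without differentiation vehicle replicate 1 (0.169) or 2 (0.0707), while the difference itself stayed between -0.68 and -0.50. Hopx had a difference of the same direction (-0.65, SE 0.18, adjusted p = 0.0562). It passed without proliferation 4HBP replicate 3 (0.0123) or vehicle replicate 3 (0.0139), by DESeq2 (0.0155), by edgeR without the filter (0.00333) and by voom with quality weights (0.0351). The other 7 markers had differences from -0.32 for Prom1 to 0.32 for Nes, with adjusted p from 0.413 to 0.992.

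Among the other lists, 4 of 25 stem cell genes (Lpar1, Thrsp and Ptprz1 among them) and 6 of 10 astrocyte markers passed the interaction, all with a lower 4HBP effect in proliferation medium. The same held for 2.48% of all genes. For Lpar1 the difference was -1.35 on the log2 scale (adjusted p = 0.00273).

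For each marker, the protein-coding genes whose normalized log2 CPM ran most alike over the 11 libraries were sought among 9874 genes. The libraries fall into the 2 media, so a high Pearson correlation (r) mostly says that a gene has a similar step between the media. Nes was most like Rbmxl1 (r = 0.997) and Fkbp3 (0.997), and Vim most like Serpina3n (0.997) and Slc5a3 (0.997). Sox9 was most like Sall3 (0.997) and Zmynd8 (0.996), and Sox2 most like Cnn3 (0.995) and Tex9 (0.994). Fabp7 was most like Lancl2 (0.995) and Eid1 (0.994). Of the rising markers, Prom1 was most like Ugt8a (0.997) and Ephb1 (0.997), Msi1 most like Adcy3 (0.991) and Wfs1 (0.990), and Hopx most like Coq9 (0.986) and Coq10a (0.985). Sox1, whose step was the smallest of the falling markers, had the lowest values, with Asap2 (0.971) and Rgl1 (0.953).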

How the data were processed

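RNA was sequenced as 150 bp read pairs from 11 stranded, poly(A)-selected libraries. The authors trimmed reads with cutadapt and quantified genes with RSEM 1.3.0 and Bowtie2 2.2.9 against GRCm38 (mm10) and GENCODE vM17, and deposited for each library the expected count (fragments assigned to a gene, not normalized), the TPM (normalized for transcript length and depth) and the transcript lengths. The FPKM values were not used.

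Expected counts were rounded to whole numbers (18.6% of those above 0 were not whole), filtered by filterByExpr, scaled by TMM and fitted with edgeR 4.0.16 in R 4.3.3, with Benjamini-Hochberg adjustment over all genes tested and a threshold of 0.05. Medium comparisons and the interaction used all 11 libraries, as 4 group means, and 4HBP comparisons used the libraries of their own medium. The study itself used limma on log2(CPM+1), which was run as an alternative (limma 3.58.1), as were DESeq2 1.42.0, library totals, no filter, voom with quality weights, a fit with the replicate number as a block, and fits with 1 library left out. The TPM alternatives were added after the data were seen. The tests were tried on simulated counts first. Replicate numbers were checked as pairs and did not pair the libraries.

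Gene positions came from GENCODE vM21 of the same build (99.7% of identifiers matched), and promoter sequences from RefSeq (GRCm38.p6). Genes named beside the 10 markers were, per list and comparison, at most 4 of those called, those with the largest change, and for each marker the 2 protein-coding genes with the highest correlation among those with a mean log2 CPM of at least 3. Map2 and Rbfox3 were named in addition, for their level within the neuron list. The markers, gene lists and tests were chosen with earlier results of these data known. No batch or date is given in the labels, so batches could not be compared. 1 gene of the lists is counted but not reported here by name.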

Additional observations from a re-analysis of the deposited data

Results flagged for a closer look

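Fabp7 was flagged because its 4HBP effect differed between the media by a test of the difference itself: the log2 fold change with 4HBP was lower in proliferation than in differentiation medium by 0.59 (difference -0.59, edgeR interaction, adjusted p = 0.0204), from -0.35 in proliferation medium to 0.23 in differentiation medium. The 4HBP libraries lay below the vehicle libraries in 3 of 3 cases in the former, as for 15.1% of all genes. They lay above them in 3 of 3 cases in the latter, as for 17.4% of all genes. The interaction test itself used these values. In proliferation medium alone Fabp7 did not pass (edgeR, adjusted p = 0.0605). The interaction call was also lost in several fits with 1 library left out, as listed above.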

How the results depend on the processing

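In the medium comparisons the number of markers called stayed between 7 and 9 with vehicle and between 7 and 9 with 4HBP under every alternative. For 4HBP in proliferation medium, where 0 were called, DESeq2, no filter on low counts and the fit to all 11 libraries each called 1. For 4HBP in differentiation medium, where 2 were called, limma on log2(CPM+1), limma on log2(CPM+0.1), the study's thresholds and the fit to all 11 libraries called 0 (of all genes these called 0, 147, 49 and 0), and leaving out 1 library gave 0 to 2. For the interaction, where 1 was called, DESeq2, no filter and voom with quality weights called 2, limma called 0, and leaving out 1 library gave 0 to 2. Same-numbered replicates did not deviate together (correlations from -0.06 to 0.02), and a replicate block left the counts at 9, 8, 0, 3 and 1, the added call in differentiation medium being Vim. Of 657 values of single markers under alternatives, 17 changed sign, all for changes near 0 except Sox1 between the media on the TPM scale (0.043 with vehicle and 0.19 with 4HBP). With 1 library left out, Sox9 ran from -0.039 to 0.093 and Vim from -0.051 to 0.15 for 4HBP in proliferation medium, and Nes from -0.056 to 0.028 and Sox2 from -0.016 to 0.019 in differentiation medium. The interaction of Msi1 (-0.0035) was 0.044 with library totals, 0.042 by limma and 0.0029 with the replicate block, and ran from -0.023 to 0.019 with 1 library left out. The 49 genes called with the study's thresholds came from a re-run, and the study itself reported more genes for this comparison in differentiation medium. Why the calls changed was not tested. With library totals in place of TMM, the median log2 fold change of all genes between the media with vehicle was 0.11 instead of 0.03. Differentiation medium has only 2 vehicle libraries, and Tfap2c had at most 4 counts in any library.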
